A study of Mus musculus with 12 samples.

Results

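The aryl hydrocarbon receptor and its best known target genes were examined in mouse liver as 6 genes, Ahr, Arnt, Cyp1a1, Cyp1a2, Cyp1b1 and Tiparp, chosen by name. All 6 were on the array among 18193 genes, through 15 of 34945 probe sets that name a single gene, and each gene was read at its brightest probe set, averaged across the 12 arrays. Livers of male mice gave total RNA for 12 one-colour Affymetrix arrays in 4 groups of 3: Nrf2 null with CDDO-Im, Nrf2 null with vehicle, wild type (WT) with CDDO-Im and WT with vehicle. CDDO-Im, an activator of the transcription factor Nrf2 made from a triterpenoid, was given by gavage at a labelled 30 uM/kg, vehicle went to the other mice the same way, and the labelled time was 6 hours. All values are log2 intensities as deposited. The age, the strain, the way Nrf2 was deleted and whether each array stands for a separate mouse are not stated in the labels, so the p-values speak of the spread among these arrays, which may be technical.

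The aryl hydrocarbon receptor, encoded by Ahr, waits in the cytosol with HSP90 chaperones until a ligand such as a dioxin, a plant indole or a tryptophan metabolite binds it. It then enters the nucleus, pairs with ARNT and binds DNA at GCGTG cores, which switches on the cytochrome P450 enzymes of the CYP1 family. Hepatocytes make CYP1A2 without any inducer, while CYP1A1 and CYP1B1 are scarce in unexposed liver. TIPARP, an ADP-ribosyltransferase induced by the receptor, acts back on it and damps its activity. Nrf2 serves another branch of the detoxification response, and binds elements of the form TGAC, any 3 bases and GC with small Maf proteins.

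Cyp1a1 and Cyp1a2 lie head to head on mouse chromosome 9, and the RefSeq starts used here are 13958 bases apart (GRCm38.p6). The RefSeq gene record of Cyp1a1 spans 57687928 to 57703824, so it begins upstream of the start used. The bases before that beginning were not searched. The 250 bases before each start are shown because the neighbours differed in their values below, and those of Tiparp because it moved the other way from Cyp1a2. They are written 5′ to 3′ on the gene's own strand, with GCGTG or its reverse complement in capitals.
Cyp1a2: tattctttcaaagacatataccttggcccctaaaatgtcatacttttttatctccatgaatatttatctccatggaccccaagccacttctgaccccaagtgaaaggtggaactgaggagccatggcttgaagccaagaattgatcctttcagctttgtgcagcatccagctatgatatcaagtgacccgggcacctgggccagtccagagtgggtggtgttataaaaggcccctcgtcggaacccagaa
Cyp1a1: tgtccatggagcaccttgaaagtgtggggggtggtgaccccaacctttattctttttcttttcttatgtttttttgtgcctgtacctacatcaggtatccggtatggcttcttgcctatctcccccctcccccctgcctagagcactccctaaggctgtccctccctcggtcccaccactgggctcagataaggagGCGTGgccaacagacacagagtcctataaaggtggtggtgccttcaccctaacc
Tiparp: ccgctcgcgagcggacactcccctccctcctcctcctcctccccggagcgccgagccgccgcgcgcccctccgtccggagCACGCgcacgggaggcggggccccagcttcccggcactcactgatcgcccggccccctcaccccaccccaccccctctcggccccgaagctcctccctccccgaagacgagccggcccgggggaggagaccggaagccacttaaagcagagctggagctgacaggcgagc
The Cyp1a2 window is chr9:57683656-57683905 on the minus strand, that of Cyp1a1 chr9:57697363-57697612 on the plus strand and that of Tiparp chr3:65528197-65528446 on the plus strand. GCGTG was searched on both strands. It occurred once in the Cyp1a1 window, 54 to 50 bases before the start, once on the other strand in the Tiparp window, 170 to 166 bases before the start, and 0 times in the Cyp1a2 window. The windows of Arnt (chromosome 3) and Cyp1b1 (chromosome 17) held 1 GCGTG each. It was in 28.2% of the 32851 such windows that RefSeq gives. TGAC, any 3 bases and GC was found on either strand in 10.2% of windows, and among the 5 genes matched to the table in Arnt alone, at 2 places that do not overlap the GCGTG. The Ahr gene (Entrez Gene 11622) lies on chromosome 12 from 35497979 to 35534989. The known receptor-binding enhancer of Cyp1a1 lies farther upstream than these windows.

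The array medians lay between 5.77 and 5.83. Transcripts of 7 hepatocyte markers summed to between 16.21 and 16.38 on every array. Of these 7 Ass1, a urea cycle enzyme, lay below the array median on all 12 arrays, and the sum rests on the other 6, which include Alb and Apoa1. Nfe2l2, which encodes Nrf2, read 4.78, 4.96 and 4.93 in null livers with CDDO-Im and 4.83, 4.87 and 4.44 with vehicle, against 8.37, 9.14 and 8.67 in WT livers with CDDO-Im and 8.51, 8.60 and 8.69 with vehicle. Nqo1, a quinone reductase and standard Nrf2 target, averaged 4.88 and 4.84 in null livers with CDDO-Im and vehicle, and 7.20 and 5.12 in WT livers with CDDO-Im and vehicle. Transcripts of 13 pancreatic acinar markers summed to 12.70 in Nrf2 null vehicle replicate 2 and to 14.25 in WT vehicle replicate 3, and to between 10.27 and 10.73 on the other 10 arrays. No acinar marker was called in any comparison. The high values sit on a single array in each vehicle group and widen the spread, so this cannot show that the groups were alike in these markers. Among markers of 6 other cell types, 1 of 8 of sinusoidal endothelial cells was higher and 2 of 6 of neutrophils were lower with CDDO-Im in Nrf2 null livers, and 2 of 8 endothelial markers were higher in WT livers. Of all genes 3.58% were higher and 2.32% lower in Nrf2 null livers, and 0.978% were higher in WT livers. Under CDDO-Im 1 of 8 endothelial and 1 of 8 Kupffer cell markers were lower in Nrf2 null than in WT livers, where 0.824% of all genes were lower. The part of these markers in the results was not tested. Both acinar-carrying arrays are vehicle arrays, so results are given without them where that changes a call of the 6 genes or ends a call in the gene lists. All 6 vehicle titles carry an unexplained mark that no CDDO-Im title has, and its meaning and the compound cannot be told apart. In whole liver, fewer cells of a type and less RNA per cell cannot be told apart.

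CDDO-Im raised Cyp1a2 in both genotypes and lowered Tiparp in Nrf2 null livers, while under the compound Cyp1a2 was lower in Nrf2 null than in WT livers. Ahr itself was also called lower there, at an adjusted p of 0.0476 that was lost in 16 of 23 alternatives, and its second probe set was not called. In Nrf2 null livers 1 of the 6 genes rose and 1 fell, where 3.58% of all 18193 genes rose and 2.32% fell (5.9% called). In WT livers 1 rose and none fell, where 0.978% rose and 0.846% fell (1.82% called). Under CDDO-Im 2 were lower in Nrf2 null than in WT livers and none higher, where 0.824% of all genes were lower and 0.621% higher (1.45% called). With vehicle 0 of the 6 were called between genotypes (0.39% of all genes, with 0.115% higher and 0.275% lower in Nrf2 null livers), 2 of them with an unadjusted p under 0.05, and for the difference between the 2 effects of CDDO-Im 0 of 6 (0.137% of all genes, with 0.011% positive and 0.126% negative), 3 with an unadjusted p under 0.05. Calls are those of limma's moderated test with a Benjamini-Hochberg adjusted p, taken over all genes, under 0.05. The 3 arrays of each group did not overlap for 5 of 6 genes between CDDO-Im and vehicle in WT livers, against 16.6% of all genes, and for 2 of 6 in Nrf2 null livers, against 23.1%. Between genotypes they did not overlap for 5 of 6 under CDDO-Im, against 16.8% of all genes, and for 2 of 6 with vehicle, against 17%. The 6 genes were read on the same arrays and are not replicates of each other. They and the lists below were chosen with earlier results of these data known. The shares of all genes are therefore given as description and test no enrichment.

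**Figure D1:**
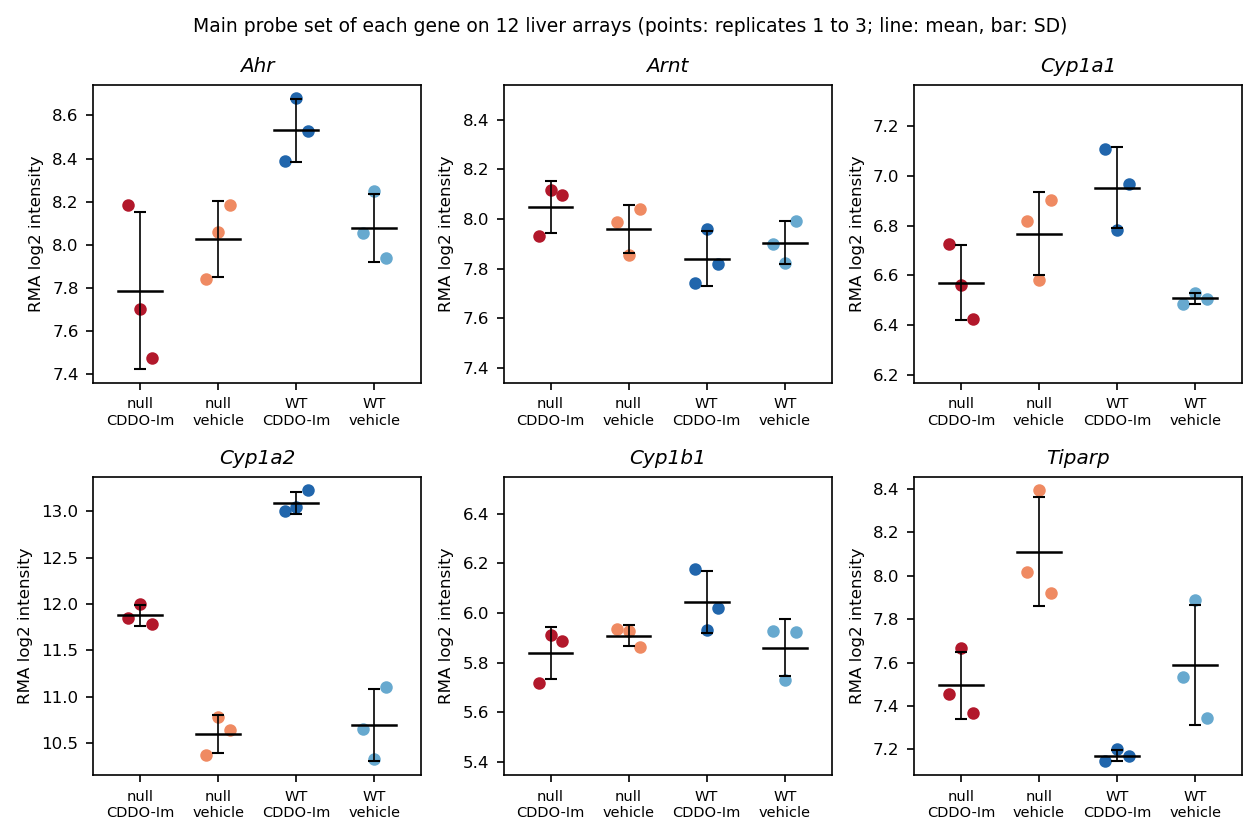
The log2 intensity of each gene's main probe set (vertical axis, its own range in each panel) on the 12 arrays, by group (horizontal axis). Points are the 3 replicates, the line is the group mean and the bar the SD. Cyp1a2 has its 3 WT CDDO-Im arrays at 13.00 to 13.23, its 3 Nrf2 null CDDO-Im arrays at 11.7781 to 11.9996 and all vehicle arrays at or below 11.10.

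Cyp1a2 (Entrez Gene 13077), a hepatocyte enzyme that oxidises caffeine and aromatic amines, gave the largest response of the 6. It read 11.8484, 11.9996 and 11.7781 in Nrf2 null livers with CDDO-Im, against 10.37, 10.77 and 10.64 with vehicle. In WT livers it read 13.00, 13.05 and 13.23 with CDDO-Im, against 10.65, 10.32 and 11.10 with vehicle. The CDDO-Im arrays lay above all vehicle arrays in both genotypes, and the Nrf2 null CDDO-Im arrays lay below all WT CDDO-Im arrays. The rise was 2.43-fold in Nrf2 null livers (1.28 ± 0.17, SE, adjusted p = 0.00499) and 5.29-fold in WT livers (2.40 ± 0.17, adjusted p = 1.18e-05). Under CDDO-Im the level was 2.33-fold lower in Nrf2 null than in WT livers (-1.22 ± 0.17, adjusted p = 0.00283). With vehicle the genotypes overlapped, and their difference had a 95% interval of -0.46 to 0.27 (adjusted p = 0.864).

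The order of the Cyp1a2 levels, from the highest, was WT with CDDO-Im, Nrf2 null with CDDO-Im, WT with vehicle and Nrf2 null with vehicle. The vehicle groups did not differ beyond their spread, and the second and the third of this order were not compared. The effect of CDDO-Im was smaller in Nrf2 null than in WT livers, with a difference of -1.12 ± 0.24 (95% interval -1.64 to -0.61), which ranked 53rd of 18193 genes by p but did not pass after adjustment (adjusted p = 0.168). Without WT vehicle replicate 3, which carried the acinar transcripts and read highest of the vehicle arrays at 11.10, the difference was -1.33 and passed (adjusted p = 0.00797). It also passed without both arrays that carried them (-1.24, adjusted p = 0.0204) and with array weights (-1.26, adjusted p = 0.0178), and did not in the other 19 of 22 alternatives. The weights were 3.78, 0.997 and 0.452 for WT vehicle replicates 1, 2 and 3, so the weighted mean of that group rests mostly on replicate 1. This limit holds wherever array weights are named. The rises within each genotype and the difference under CDDO-Im kept their calls whichever array was left out, with adjusted p of at most 0.0334 in Nrf2 null livers, 0.00018 in WT livers and 0.0191 between genotypes. Tested against a minimum of 1.5-fold, the Nrf2 null rise (adjusted p = 0.332) and the genotype difference (adjusted p = 0.397) did not pass, and the WT rise did.

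Cyp1a1 (Entrez Gene 13076), which oxidises polycyclic aromatic hydrocarbons and is the usual marker of receptor activation, moved far less than its neighbour. It read 6.73, 6.56 and 6.43 in Nrf2 null livers with CDDO-Im, against 6.82, 6.58 and 6.90 with vehicle. In WT livers it read 7.11, 6.78 and 6.97 with CDDO-Im, against 6.49, 6.53 and 6.50 with vehicle. The WT groups did not overlap and the Nrf2 null groups did. Its mean over all arrays stood at the 62.1th percentile of single-gene probe sets, so the signal was in the middle range of the array. The WT difference was 0.45 ± 0.11 (1.36-fold) and did not pass with all 12 arrays (adjusted p = 0.0636).

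That Cyp1a1 difference passed in 3 of 23 alternatives, namely with array weights (0.47, adjusted p = 0.00764), without both acinar-carrying arrays (0.44, adjusted p = 0.0425) and among genes above the median signal, where its adjusted p stood just under the threshold and rounds to it. The Nrf2 null difference was -0.20, with a 95% interval of -0.43 to 0.04 (adjusted p = 0.363). The effects in the 2 genotypes differed by -0.64 ± 0.15, with a 95% interval of -0.98 to -0.31, an unadjusted p of 0.0013 and an adjusted p of 0.244. Under CDDO-Im the 3 Nrf2 null arrays lay below the 3 WT arrays (-0.38, adjusted p = 0.135), and with vehicle the 3 Nrf2 null arrays lay above them (0.26, adjusted p = 0.328), neither passing. From the highest, the levels ran from WT with CDDO-Im (6.95 ± 0.16, SD, n = 3) through Nrf2 null with vehicle (6.77 ± 0.17) and Nrf2 null with CDDO-Im (6.57 ± 0.15) to WT with vehicle (6.51 ± 0.02), and no tested pair of groups differed after adjustment.

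**Figure D2:**
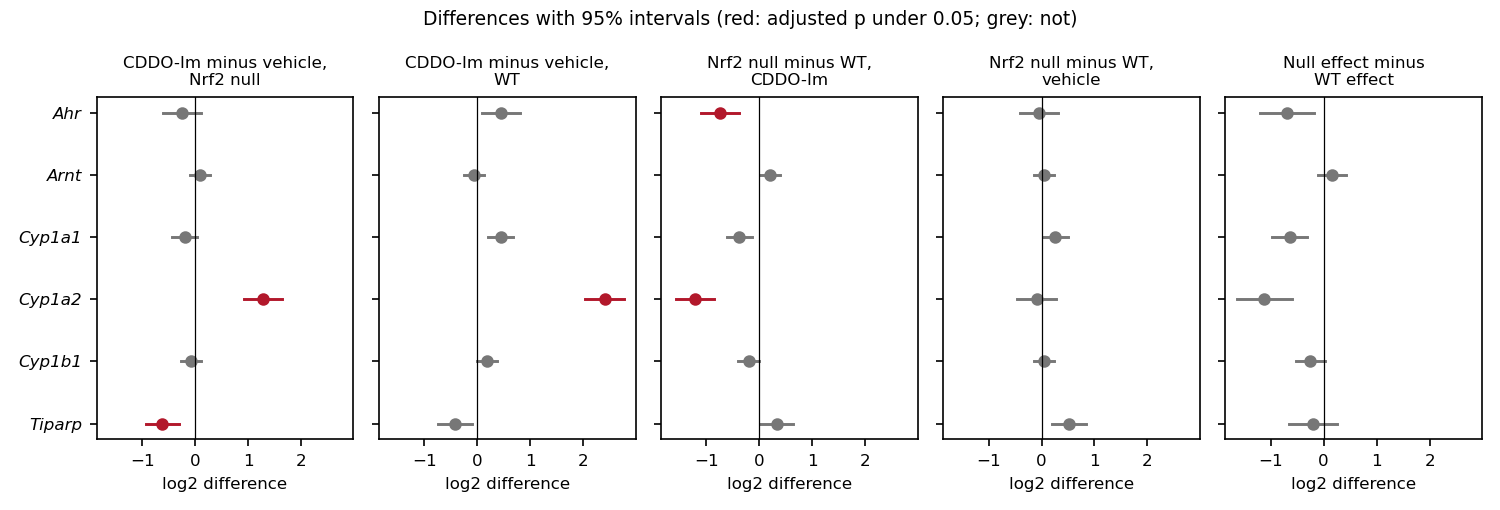
Log2 differences (horizontal axis) of the 6 genes (vertical axis) in the 5 comparisons, each with its 95% interval. Red marks an adjusted p under 0.05 and grey a larger one. Cyp1a2 is called in the first 3 panels, Tiparp in the first and Ahr in the third.

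Cyp1b1 (Entrez Gene 13078), a CYP1 enzyme of cells outside the hepatocyte lineage in most tissues, was near the array medians throughout. Its main probe set read 5.72, 5.91 and 5.89 in Nrf2 null livers with CDDO-Im, against 5.94, 5.93 and 5.86 with vehicle, and 6.18, 5.93 and 6.02 in WT livers with CDDO-Im, against 5.93, 5.73 and 5.92 with vehicle. The WT groups touched without overlapping, and the Nrf2 null groups overlapped. The WT difference was 0.18 (95% interval -0.01 to 0.37, adjusted p = 0.394) and the Nrf2 null difference -0.07 (-0.26 to 0.12, adjusted p = 0.749). Of its other probe sets 1416613_at lay below the array median on all 12 arrays, and 1416612_at on 5. Neither was called in any comparison. The 4 group means of the main probe set lay between 5.84 and 6.04, and no tested pair of groups differed after adjustment.

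Ahr, the receptor, differed between genotypes in CDDO-Im-treated livers. It read 8.19, 7.70 and 7.47 in Nrf2 null livers with CDDO-Im, against 8.39, 8.68 and 8.53 in WT livers with CDDO-Im. With vehicle it read 7.84, 8.06 and 8.18 in Nrf2 null livers, against 8.05, 8.25 and 7.94 in WT livers. Under CDDO-Im the groups did not overlap, with Nrf2 null replicate 1 nearest to WT, and with vehicle they did. The level under CDDO-Im was 1.68-fold lower in Nrf2 null livers (-0.75 ± 0.16, SE, adjusted p = 0.0476), and with vehicle the difference was -0.05 (95% interval -0.41 to 0.30, adjusted p = 0.929).

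The Ahr call stood close to the threshold and was lost in 16 of 23 alternatives. Leaving out single arrays ended it in 10 of 12 cases, with differences between -0.94 and -0.59 over the 12 cases and an adjusted p of up to 0.179, the highest without WT CDDO-Im replicate 2. It held without WT vehicle replicate 3 or Nrf2 null CDDO-Im replicate 1. The dimmer probe set 1450695_at gave -0.20 ± 0.10 for the same comparison and was not called (adjusted p = 0.539 over all probe sets), and the mean of both probe sets gave -0.47 (adjusted p = 0.0769).

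Within a genotype Ahr did not pass the test for the compound. In Nrf2 null livers the difference was -0.24 (95% interval -0.60 to 0.11, adjusted p = 0.484), and in WT livers it was 0.45 (0.10 to 0.81, unadjusted p = 0.017, adjusted p = 0.22), with all 3 WT CDDO-Im arrays above the vehicle arrays. The effects in the 2 genotypes differed by -0.69 ± 0.23 (adjusted p = 0.49). From the highest, the group means ran WT with CDDO-Im 8.53 ± 0.15, WT with vehicle 8.08 ± 0.16, Nrf2 null with vehicle 8.03 ± 0.17 and Nrf2 null with CDDO-Im 7.79 ± 0.36 (SD, n = 3), and no 2 neighbours in that order differed after adjustment.

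Arnt (Entrez Gene 11863), the DNA-binding partner that the receptor shares with the hypoxia-inducible factors, was called in no comparison. Its main probe set read 7.93, 8.12 and 8.10 in Nrf2 null livers with CDDO-Im, against 7.99, 7.85 and 8.04 with vehicle, and 7.74, 7.96 and 7.82 in WT livers with CDDO-Im, against 7.90, 7.82 and 7.99 with vehicle. The groups overlapped in all 4 pairwise comparisons. The CDDO-Im difference had a 95% interval of -0.10 to 0.28 in Nrf2 null livers and -0.25 to 0.12 in WT livers. Its 5 probe sets did not share a sign in WT livers, where they ranged from -0.09 to 0.19, and the others were not called either.

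Tiparp (Entrez Gene 99929), the feedback enzyme, moved down with CDDO-Im. It read 7.45, 7.67 and 7.37 in Nrf2 null livers with CDDO-Im, against 8.02, 8.39 and 7.92 with vehicle, and the groups did not overlap. In WT livers it read 7.15, 7.20 and 7.17 with CDDO-Im, against 7.54, 7.89 and 7.34 with vehicle, again without overlap. The fall was 1.53-fold in Nrf2 null livers (-0.62 ± 0.15, SE, adjusted p = 0.0328). In WT livers the difference was -0.42 ± 0.15 and did not pass (adjusted p = 0.203), and the effects in the 2 genotypes differed by -0.20 (95% interval -0.65 to 0.25, adjusted p = 0.921).

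All 3 Tiparp probe sets fell in Nrf2 null livers when every single-gene probe set was tested. The main set 1426721_s_at fell by 0.62 (adjusted p = 0.0378), 1452161_at by 0.53 (adjusted p = 0.0332) and 1452160_at by 0.95 (adjusted p = 0.0197), the last from a signal below the array median on 11 of 12 arrays. In WT livers the same sets differed by -0.42, -0.09 and -0.31, and none passed. The probe sets share a target transcript and are not independent. The Nrf2 null call of the main set was lost without Nrf2 null vehicle replicates 1 (adjusted p = 0.0806) or 2 (0.109) and without Nrf2 null CDDO-Im replicates 1 (0.0733), 2 (0.0576) or 3 (0.13), with differences between -0.71 and -0.47 over all 12 cases of an array left out. It held without both acinar-carrying arrays (-0.47, adjusted p = 0.0395), and there the WT difference passed too (-0.54, adjusted p = 0.0193), as it did without WT vehicle replicate 3 alone (adjusted p = 0.0448).

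Between genotypes Tiparp was not called. With vehicle its 3 Nrf2 null arrays lay above the 3 WT arrays (0.52 ± 0.15, adjusted p = 0.158), and it passed with array weights alone (0.64, adjusted p = 0.0148). Probe sets 1452161_at and 1452160_at gave 0.53 and 0.77 for the same comparison (adjusted p = 0.108 and 0.128). From the highest, the means were 8.11 ± 0.25 in Nrf2 null with vehicle, 7.59 ± 0.28 in WT with vehicle, 7.50 ± 0.15 in Nrf2 null with CDDO-Im and 7.17 ± 0.03 in WT with CDDO-Im (SD, n = 3). The second and the third of these were not compared, and the other neighbours did not differ after adjustment.

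**Figure D3:**
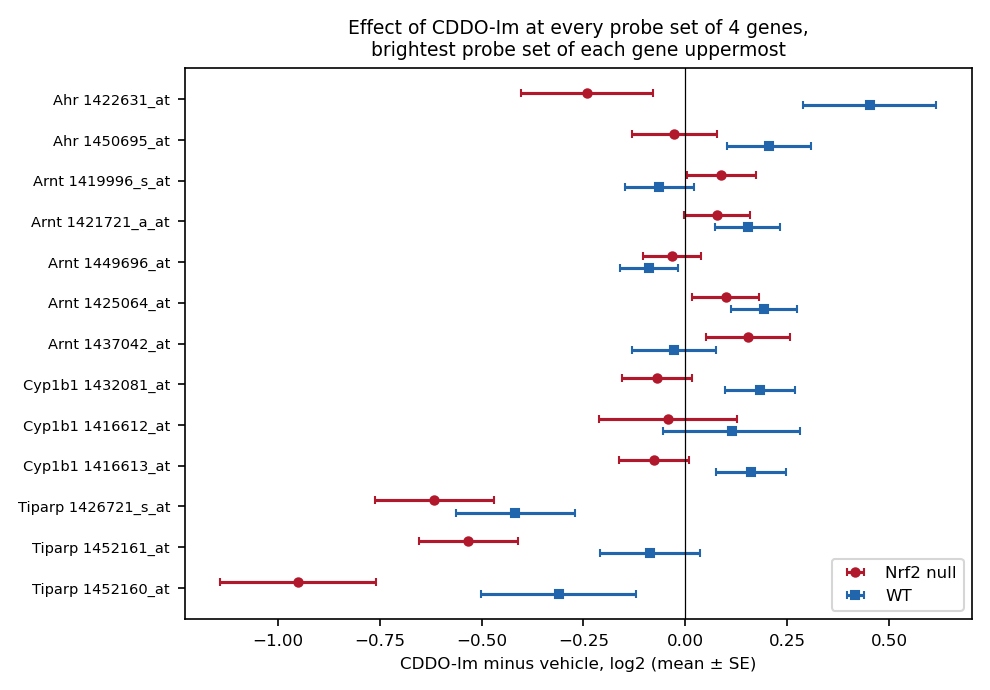
CDDO-Im minus vehicle (horizontal axis, log2, mean ± SE) at each probe set of the 4 genes that have several (vertical axis), in Nrf2 null livers (red circles) and WT livers (blue squares). The Tiparp sets lie at -0.95 to -0.53 in Nrf2 null livers, and the Arnt sets fall on both sides of 0 in WT livers.

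Genes that act with the receptor or share its regulation were counted in 7 lists. Of 7 measured genes of its protein complex and its regulators 0 were called for CDDO-Im in either genotype (median difference -0.08 in Nrf2 null and -0.03 in WT livers, against -0.005 and 0.006 over all genes). Of all genes 5.9% were called in Nrf2 null livers and 1.82% in WT livers. Hsp90aa1, a chaperone that holds the unliganded receptor, was lower in Nrf2 null than in WT livers under CDDO-Im, at 9.82 against 10.99 (-1.18 ± 0.14, adjusted p = 0.00113). It kept this call whichever array was left out, and was the 1 of the 7 called there, where 1.45% of all genes were called. With vehicle Hsp90aa1 averaged 9.91 in Nrf2 null and 10.52 in WT livers (-0.61 ± 0.14, adjusted p = 0.0998). Its effects of CDDO-Im in the 2 genotypes differed by -0.56 (adjusted p = 0.557), so the gap was not shown to depend on the compound. Ahrr, the receptor's repressor and one of its targets, lay below the array median on all 12 arrays and was called in no comparison. Of 10 other bHLH-PAS proteins, the family of AHR and ARNT, 1 was called, with CDDO-Im in Nrf2 null livers, where 5.9% of all genes were called. This was Epas1, a hypoxia-inducible factor that pairs with ARNT, which fell by 0.82 (adjusted p = 0.049, held in 3 of 12 cases of an array left out). In WT livers Epas1 differed by -0.65 (adjusted p = 0.182).

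Of 9 other genes known to be inducible through the receptor in mouse liver, 3 rose in Nrf2 null livers and 3 in WT livers, with median differences of 0.37 and 0.33. Of all genes 3.58% rose in Nrf2 null livers and 0.978% in WT livers, and under the alternatives the number of the 9 called ran from 0 to 4 in Nrf2 null livers and from 2 to 4 in WT livers. Notum, which inactivates Wnt proteins, rose in both, by 0.59 ± 0.11 in Nrf2 null livers (adjusted p = 0.0135, held in 10 of 12 cases of an array left out) and by 0.69 ± 0.11 in WT livers (adjusted p = 0.0087). Among the others, Cd36, a fatty acid receptor, rose in Nrf2 null livers by 0.76 (adjusted p = 0.0168, held in 10 of 12 cases of an array left out) and Selenbp1, a selenium-binding protein, in Nrf2 null livers by 1.07 (adjusted p = 0.0365, held in 3 of 12 cases of an array left out). In WT livers Cd36 and Selenbp1 differed by 0.33 (adjusted p = 0.365) and 0.45 (adjusted p = 0.525). The others that rose in WT livers were Nqo1 and Ugdh, which makes UDP-glucuronate and is also a known Nrf2 target, at 2.07 and 2.83. For both the 2 effects of CDDO-Im differed, by -2.03 (adjusted p = 5.04e-06) for Nqo1 and by -2.17 (adjusted p = 0.0238) for Ugdh, the second in 2 of 12 cases of an array left out. Between genotypes 3 of the 9 were lower in Nrf2 null livers under CDDO-Im (Nfe2l2, Nqo1 and Ugdh) and 2 with vehicle (Nfe2l2 and Cd36, Cd36 in 2 of 12 cases of an array left out). Of all genes 0.824% were lower there under CDDO-Im and 0.275% with vehicle. Nfe2l2 is the deleted gene, so its calls were set by the design and leave Nqo1 and Ugdh under CDDO-Im and Cd36 with vehicle. The vehicle call of Cd36 was lost without both acinar-carrying arrays (adjusted p = 0.0953). Aldh3a1, an aldehyde dehydrogenase of the same gene battery, lay below the array median on all 12 arrays and was called in no comparison.

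The proteins that pass electrons to cytochrome P450 enzymes or supply their heme rose in 3 of 6 cases in Nrf2 null livers and in 1 of 6 in WT livers, with medians of 0.56 and 0.28, where 3.58% and 0.978% of all genes rose. Under the alternatives 0 to 4 of the 6 were called in Nrf2 null livers and 1 to 4 in WT livers. Cyb5b, a cytochrome b5 of the outer mitochondrial membrane, rose by 0.72 ± 0.12 in Nrf2 null livers (adjusted p = 0.0103, held in 11 of 12 cases of an array left out) and by 1.26 ± 0.12 in WT livers (adjusted p = 0.000171), and under CDDO-Im was lower in Nrf2 null livers (-0.74, adjusted p = 0.0076). Cyb5a, the microsomal cytochrome b5, rose by 0.34 (adjusted p = 0.0211, held in 8 of 12 cases of an array left out) and Cyb5r3, its reductase, by 0.96 (adjusted p = 0.00405) in Nrf2 null livers. In WT livers they differed by 0.30 (adjusted p = 0.0665) and 0.26 (adjusted p = 0.296). Alas1, the first enzyme of heme synthesis, differed by 0.996 in Nrf2 null and 1.01 in WT livers and did not pass in either (adjusted p = 0.0614 and 0.101).

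Enzymes of tryptophan breakdown, a source of receptor ligands, were called in 3 of 11 cases in each genotype. Of all genes 5.9% were called in Nrf2 null livers and 1.82% in WT livers. The list holds enzymes that make kynurenine and enzymes that act on it or beside it, so its count does not describe kynurenine production. Under the alternatives the count ran from 0 to 5 in Nrf2 null livers and from 0 to 6 in WT livers. In Nrf2 null livers Afmid (1.86, adjusted p = 0.045, held in 2 of 12 cases of an array left out), Haao (0.57, adjusted p = 0.0277, held in 8 of 12) and Kyat3 (0.81, adjusted p = 0.0139) rose, with a list median of 0.10. In WT livers Tdo2, the liver enzyme that opens the tryptophan ring, rose by 0.56 (adjusted p = 0.0429, held in 5 of 12) and Il4i1 by 0.42 (adjusted p = 0.0468, held in 2 of 12), while Kmo, which hydroxylates kynurenine, fell by 0.84 (adjusted p = 0.0137, held in 9 of 12), with a list median of 0.17. Afmid, Haao and Kyat3 differed by 0.87, 0.01 and 0.47 in WT livers, and none passed there. Tdo2, Il4i1 and Kmo differed by -0.21, 0.15 and -0.50 in Nrf2 null livers, and none passed there (adjusted p = 0.07 for Kmo). Under CDDO-Im Tdo2 was lower in Nrf2 null than in WT livers, at 12.53 against 13.18 (-0.65 ± 0.12, adjusted p = 0.0204, held in 8 of 12). None of the 11 was called between genotypes with vehicle (71 of 18193 genes were), and none for the difference between effects (25 of 18193 genes were).

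Of 7 genes of the receptors CAR and PXR, which also act on P450 genes, Nr1i3, the gene of CAR, rose in Nrf2 null livers by 0.77 (adjusted p = 0.0264, held in 8 of 12 cases of an array left out), and in WT livers it differed by 0.73 (adjusted p = 0.0589). Cyp2b10, the standard CAR target, differed by -0.03 in Nrf2 null and 0.02 in WT livers. The list medians were 0.65 and 0.05, and 1 of the 7 was called in Nrf2 null livers and 0 in WT livers. Of all genes 5.9% and 1.82% were called there. Of 10 genes of hepatocytes around the central vein, where Cyp1a2 is known to be strongest, only Cyp27a1, which makes bile acids, was called for CDDO-Im. It rose by 1.11 in Nrf2 null livers (adjusted p = 0.00996) and by 1.05 in WT livers (adjusted p = 0.0132, held in 9 of 12), while Cyp2e1, a neighbour of Cyp1a2 in that zone, differed by 0.10 in both. Of all genes 3.58% rose in Nrf2 null livers and 0.978% in WT livers. Tbx3, a transcription factor of that zone, was lower in Nrf2 null livers with vehicle (-0.58, adjusted p = 0.0449, held in 3 of 12 cases of an array left out). It was the 1 of the 10 called in that comparison, where 0.39% of all genes were called. No other member of the lists named here was called between genotypes or for the difference between effects.

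**Figure D4:**
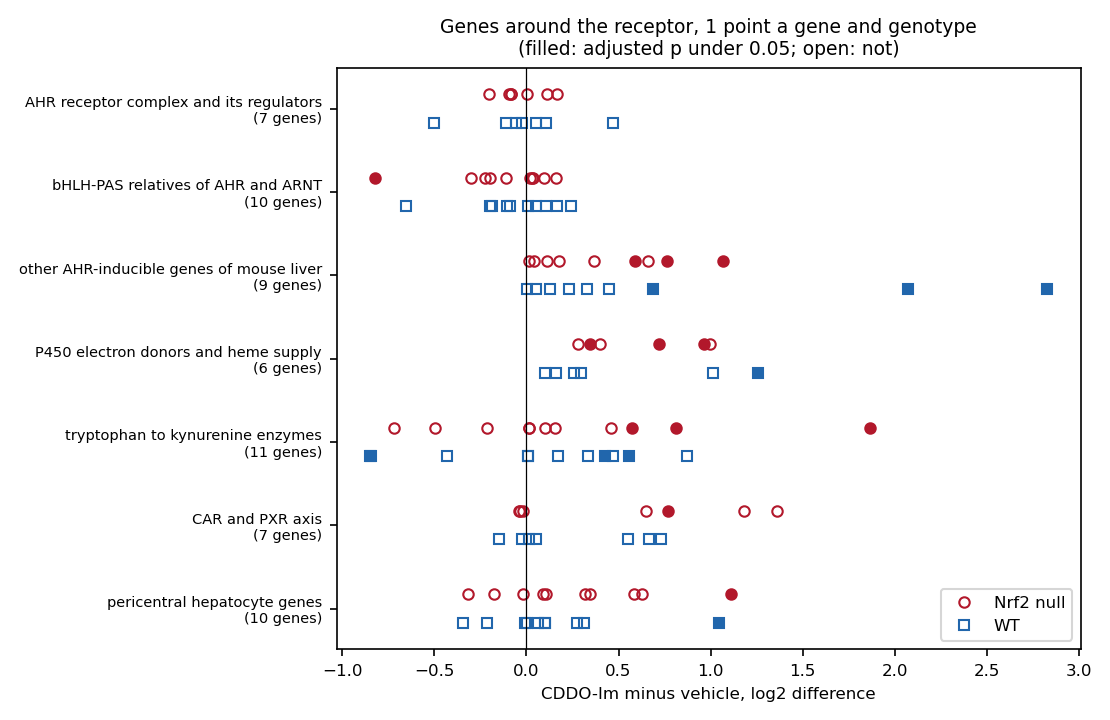
CDDO-Im minus vehicle (horizontal axis, log2) for each measured gene of the 7 lists (vertical axis), in Nrf2 null livers (red circles) and WT livers (blue squares). Filled symbols have an adjusted p under 0.05. The 2 WT points above 2 in the list of inducible genes are Nqo1 and Ugdh.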

How the data were processed

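Mouse liver RNA was measured on 12 one-colour arrays. The authors deposited a log2 intensity for each probe set of each array. The submitters' processing notes name RMA, and its version is not given in the sources used here. These were used as deposited. Signal over background was not used here, and the number of arrays limits the precision. Of 45101 probe sets 64 were controls, 34945 named 1 gene, 932 several and 9160 none (platform annotation, with symbols updated by Entrez Gene id for 34741 sets, 0 changed). The brightest single-gene probe set stood for a gene, which left 18193 genes and no filter on signal.

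limma 3.58.1 (R 4.3.3) estimated the 4 group means from the 12 arrays together (two-sided moderated test, 8 residual and 3.808 prior degrees of freedom, 95% intervals from both) in 5 comparisons. Differences are Nrf2 null minus WT or CDDO-Im minus vehicle. Intervals are not adjusted. The fit was tested on simulated data. The 6 genes and the lists were chosen with earlier results of these data known. Named genes were the 6 members, Nfe2l2, Nqo1, Ahrr, Aldh3a1, Nr1i3, Cyp2b10, in each comparison the up to 4 listed genes of lowest adjusted p per list, and the 5 genes most like each member. Cyp2e1 is named as a hepatocyte marker. Of the listed genes, those without a single-gene probe set were not analysed here. Promoters came from RefSeq (GRCm38.p6). The alternatives were other weights, priors, scalings, probe set choices, sizes and subsets of arrays.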

Additional observations from a re-analysis of the deposited data

How the results depend on the processing

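Cyp1a2 kept its direction in all alternatives of the 3 comparisons that called it, and no called difference of the 6 genes reversed. In many alternatives the difference is the same by construction and only its p can change. These are the compared arrays alone, the other prior, the other sets of tested genes, the minimum fold, the replicate block and arrays left out of other groups. There were 23 alternatives (22 for the difference between effects). In Nrf2 null livers the count of the 6 genes called was 0 instead of 2 with a minimum of 1.5-fold. In WT livers it was 2 instead of 1 with array weights and among genes above the median signal, and 3 without both acinar-carrying arrays. Under CDDO-Im it was 1 instead of 2 with the compared arrays alone, with median centring, with every probe set tested, with probe sets averaged and with the replicate block, and 0 with a minimum of 1.5-fold. With vehicle it was 1 with array weights, and for the difference between effects 1 with array weights and 1 without both acinar-carrying arrays. Leaving out single arrays gave 1 to 2, 1 to 2, 1 to 2, 0 and 0 to 1 in the same order, with Ahr, Tiparp and Cyp1a2 changing their calls as given above.

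All genes called were 1074 in Nrf2 null livers, 1897 with array weights and 1 with a minimum of 1.5-fold. In WT livers they were 332, with 110 for the compared arrays alone, 2023 when arrays were weighted, 545 over every probe set, 36 with a minimum of 1.5-fold and 1293 without both acinar-carrying arrays. Under CDDO-Im they were 263, with 443 for every probe set, 28 with a minimum of 1.5-fold and 411 without both acinar-carrying arrays. With vehicle they were 71, with 18 for the compared arrays alone, 1477 when arrays were weighted, 40 with median centring, 8 with a minimum of 1.5-fold and 117 without both acinar-carrying arrays. For the difference between effects they were 25, with 89 for array weights, 50 for every probe set, 10 with a minimum of 1.5-fold and 39 without both acinar-carrying arrays. Single arrays left out gave 97 to 1615 in Nrf2 null livers, the extremes without Nrf2 null CDDO-Im replicate 3 and WT vehicle replicate 3, and 104 to 1385 in WT livers, without WT vehicle replicates 1 and 3. Under CDDO-Im they gave 151 to 464 (without WT CDDO-Im replicate 2 and WT vehicle replicate 3), with vehicle 19 to 219 (without Nrf2 null vehicle replicate 1 and WT vehicle replicate 3) and for the difference between effects 15 to 46, the highest without WT vehicle replicate 3. The cause was not tested, apart from the smaller number of genes or arrays that an alternative uses by construction.

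Of 18 same-numbered pairs of arrays 4 had a correlation of deviations from group means over 0.1 (range -0.30 to 0.28). Of 36 pairs with different numbers 13 did (range -0.40 to 0.47). Deviations cancel within a group, so these correlations depend on each other and cannot exclude that replicate numbers pair the samples. With the replicate block the genes called were 1000 in Nrf2 null livers, 323 in WT livers, 231 under CDDO-Im, 80 with vehicle and 20 for the difference between effects, and among the 6 genes it ended only the call of Ahr (adjusted p = 0.0784).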

Other observations

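The genes whose levels followed each of the 6 most closely were taken by Pearson correlation over the 12 arrays among 9095 other genes with a mean above the median (9096 for Cyp1b1). The arrays fall into 4 groups, so the correlations reflect shared group means. Cyp1a2 was followed most closely by Gsta2 (r = 0.993), a glutathione S-transferase, Fth1 (r = 0.981), the ferritin heavy chain, Tkt (r = 0.972), a pentose phosphate enzyme, Cyb5b (r = 0.972) and Gstm6 (r = 0.971). Gsta2 averaged 8.07 and 4.75 in Nrf2 null livers with CDDO-Im and vehicle, and 11.16 and 5.15 in WT livers with CDDO-Im and vehicle.

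Tiparp was followed by Saa3 (r = 0.930), an acute phase protein, Ddx28 (r = 0.927), Junb (r = 0.926), an immediate early transcription factor, Tgm1 (r = 0.923) and Kctd17 (r = 0.909). In Nrf2 null livers Saa3 fell by 2.84 (adjusted p = 0.0103) and Junb by 2.10 (adjusted p = 0.0109). WT livers showed a fall of Saa3 too (-2.17, adjusted p = 0.041), and there Junb differed by -1.47 (adjusted p = 0.0589). Ahr was followed by Txnrd1 (r = 0.871), a thioredoxin reductase, and Tdo2 (r = 0.866), and Cyp1a1 by Ikbkg (r = 0.894), a subunit of the kinase that activates NF-kB, and Ccnd1 (r = 0.810), a G1 cyclin. Arnt was followed by Cyp2d26 (r = 0.869) and Adh5 (r = 0.868), and Cyp1b1 by Tmem52 (r = 0.912) and Cit (r = 0.880).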
